A study of Mus musculus with 21 samples.

Results

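Chemokine ligands are the small secreted proteins that draw leukocytes and stem cells along a gradient, and 34 of their genes were described here in mouse bone-forming cells exposed to fragments of parathyroid hormone (PTH). The genes were taken by name: each had exactly 1 transcript cluster (the probe group of a transcript) annotated with that single symbol, and all 34 were measured, of 22180 genes in all. These genes and the further gene lists below were chosen with earlier results of these data known. The cells were primary osteoblasts grown from skull vaults (calvaria) of 7- to 10-day-old C57BL/6J pups, differentiated at passage 2 from day 3 to day 10 and kept without serum for 24 h. They were treated for 4 h with vehicle or 1 of 6 peptides, and every group had 3 cultures from separate cell preparations, 1 array each, so 21 arrays in all. hPTH(1-34), hPTH(1-31) and PTH(1-36), each at 100 nM, start at residue 1 of the hormone and are named intact analogs here. bPTH(3-34) at 100 nM, hPTH(7-34) at 100 nM and the D-Trp12,Tyr34 amide of bPTH(7-34) at 1000 nM lack the first residues and are named truncated. Per the labels, hPTH(7-34) and PTH(1-36) each came from a supplier of their own and the other 4 peptides shared 1 supplier, so for both of them peptide and source cannot be told apart.

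Chemokine ligands are named by the spacing of their first cysteines, as CC (Ccl), CXC (Cxcl), C (Xcl) and CX3C (Cx3cl), and act on G protein-coupled receptors of the target cell. Ligands of Ccr2 recruit monocytes, the source of osteoclasts in bone, ligands of Cxcr2 recruit neutrophils, and ligands of Cxcr3 recruit activated T cells. PTH acts on osteoblasts through Pth1r, a receptor that raises cyclic AMP. Peptides without the first residues are known to bind that receptor with little or no activation.

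Values are array signals read as log2, so that a difference of 1 is a 2-fold change in signal. Differences come from limma, which fitted all 7 groups at once, and a gene is said to have risen or fallen where its p-value, adjusted by Benjamini-Hochberg over 22180 genes, was under 0.05. Because each probe responds differently, signals are compared between groups for the same gene and never between genes. The 21 array medians, taken over all 41345 transcript clusters, lay between 3.49 and 3.61, whereas the median over the 22180 genes tested was 4.43. Where dim genes are said to be left out below, those with no group mean above 4.43 were dropped. Arrays of 1 group correlated across genes at 0.990 to 0.993. In vehicle cultures the osteoblast markers Col1a1 (13.2 ± 0.04, SD, n = 3), Alpl (8.93 ± 0.16) and Pth1r (7.21 ± 0.09) were well above the array median, whereas the late markers Bglap (3.73 ± 0.20) and Dmp1 (3.28 ± 0.43) lay near it. The cultures also carried macrophage RNA, with all 12 macrophage and osteoclast markers between 6.45 (Acp5) and 12.2 (Lyz2) in vehicle. The cell that made a given chemokine transcript was therefore not determined, and in such whole cultures fewer cells of a type and less RNA per cell cannot be told apart.

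The genomic windows of 5 chemokine genes are shown first, because for these genes, in different directions, the intact cultures and those given hPTH(7-34) did not overlap. Such a lack of overlap was found in 13.7% of all genes. RefSeq windows (250 bases before to 50 after the annotated start, GRCm38.p6) were held for 24 of the 34 genes. Windows for Cxcl5, Ccl2, Ccl7 and Ccl11 were not used here. Both strands were searched for the cyclic AMP response element TGACGTCA, its core TGACG, which lies within the former, the AP-1 site TGANTCA, the NF-kappaB-like GGNNTTTCC and the TATA box letters TATAAA. Matches are in capitals. The windows are Cxcl14 at chr13:56296502-56296801 (minus strand), Ccl12 at chr11:82101595-82101894 (plus), Cxcl1 at chr5:90890995-90891294 (plus), Ppbp at chr5:90768268-90768567 (plus) and Cxcl10 at chr5:92348840-92349139 (minus).
Cxcl14: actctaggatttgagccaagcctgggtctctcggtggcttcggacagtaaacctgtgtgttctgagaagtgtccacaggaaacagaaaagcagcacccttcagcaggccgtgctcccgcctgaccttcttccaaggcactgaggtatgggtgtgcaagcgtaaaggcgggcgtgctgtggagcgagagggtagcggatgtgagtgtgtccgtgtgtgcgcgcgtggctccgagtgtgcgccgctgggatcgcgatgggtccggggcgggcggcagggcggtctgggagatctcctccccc
Ccl12: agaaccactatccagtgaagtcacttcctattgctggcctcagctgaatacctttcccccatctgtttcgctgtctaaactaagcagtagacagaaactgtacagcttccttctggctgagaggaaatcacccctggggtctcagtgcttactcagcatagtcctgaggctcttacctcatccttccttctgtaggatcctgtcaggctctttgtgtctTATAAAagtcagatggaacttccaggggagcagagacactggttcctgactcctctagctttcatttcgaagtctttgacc
Cxcl1: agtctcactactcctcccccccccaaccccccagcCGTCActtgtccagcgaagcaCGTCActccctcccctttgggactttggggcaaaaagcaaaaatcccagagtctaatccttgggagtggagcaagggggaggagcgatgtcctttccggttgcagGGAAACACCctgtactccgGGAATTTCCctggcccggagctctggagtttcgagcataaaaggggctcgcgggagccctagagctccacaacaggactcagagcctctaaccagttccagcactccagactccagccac
Ppbp: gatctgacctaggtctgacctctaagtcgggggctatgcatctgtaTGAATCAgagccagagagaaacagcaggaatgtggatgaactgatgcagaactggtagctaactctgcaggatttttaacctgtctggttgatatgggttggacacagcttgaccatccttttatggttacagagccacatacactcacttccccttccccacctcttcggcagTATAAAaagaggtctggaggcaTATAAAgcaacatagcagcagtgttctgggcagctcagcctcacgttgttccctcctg
Cxcl10: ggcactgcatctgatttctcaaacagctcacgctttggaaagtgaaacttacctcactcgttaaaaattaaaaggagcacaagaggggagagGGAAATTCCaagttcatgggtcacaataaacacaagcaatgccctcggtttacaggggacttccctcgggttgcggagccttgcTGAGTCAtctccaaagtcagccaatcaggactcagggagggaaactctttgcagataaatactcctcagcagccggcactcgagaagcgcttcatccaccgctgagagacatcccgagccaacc

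The Cxcl14 window held none of the letters searched. Cxcl1 held GGNNTTTCC in both orientations, at -89 to -81 and -70 to -62 from the start, and TGACG on the minus strand at -215 to -211 and -194 to -190. In Cxcl10, GGNNTTTCC lay at -158 to -150 on the minus strand and TGANTCA at -74 to -68. Ppbp held TGANTCA at -204 to -198 and TATAAA at -30 to -25 and -8 to -3, and Ccl12 held TATAAA at -31 to -26. Over the 25 windows of these 24 chemokine genes (Ccl25 has 2), GGNNTTTCC occurred in 7 (5.82% of all 32851 RefSeq windows held it), TGANTCA in 5 (7.81%), TATAAA in 10 (13.6%), TGACG in 3 (20.8%) and TGACGTCA in 0 (1.79%). A match is a description of letters and not of a bound site, and a window without one says nothing about the factor.

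Intact analogs raised a set of CC ligands that attract monocytes and eosinophils. Against vehicle, 8 of 34 chemokine genes rose and 0 fell with hPTH(1-34), where 3.90% of all genes rose and 4.74% fell. With hPTH(1-31) 8 rose and 0 fell (4.38% and 4.32% of all genes), and with PTH(1-36) 7 rose and 0 fell (3.68% and 3.54%). The median difference over the 34 genes was +0.22, +0.19 and +0.11 log2 units with hPTH(1-34), hPTH(1-31) and PTH(1-36), beside -0.01, -0.02 and -0.02 over all genes. Because the 34 genes were chosen with earlier results known, the shares of all genes are given for description and do not test the family. All comparisons with vehicle share the same 3 vehicle arrays. Cultures did not overlap vehicle in 23.4%, 22.1% and 20.5% of all genes with hPTH(1-34), hPTH(1-31) and PTH(1-36), and in 12.3% with hPTH(7-34).

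Of the CC ligands, Ccl12 (cluster 17254059), a mouse Ccr2 ligand also called MCP-5, moved most. Its signal was 5.12, 5.53 and 5.00 in the 3 vehicle cultures. It was 7.12, 7.26 and 6.68 with hPTH(1-34), 7.07, 7.10 and 7.08 with hPTH(1-31), and 7.12, 7.06 and 6.93 with PTH(1-36). All 9 intact cultures thus lay above all vehicle cultures, by 1.80, 1.87 and 1.82 log2 units on average (SE 0.15 each), or 3.49-, 3.65- and 3.53-fold. limma's adjusted p-values were 1.94e-07, 1.02e-07 and 2.02e-07. With bPTH(3-34) the values were 5.05, 5.05 and 5.44, and with bPTH(7-34) 5.27, 5.28 and 5.23, within the vehicle range. hPTH(7-34) gave 6.13, 6.12 and 6.47, between the vehicle cultures and the intact ones with no overlap on either side.

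Ccl2 (17254041), the main Ccr2 ligand and monocyte attractant MCP-1, read 6.62, 6.70 and 6.72 with vehicle. hPTH(1-34) cultures read 7.87, 7.76 and 7.86, hPTH(1-31) cultures 7.62, 7.54 and 8.03, and PTH(1-36) cultures 7.64, 7.84 and 7.92. The rises were 1.15, 1.05 and 1.12 (SE 0.19; limma adjusted p = 4.14e-04, 9.62e-04 and 6.27e-04). Unlike Ccl12, Ccl2 reached 7.53, 7.57 and 8.41 with hPTH(7-34), values that overlapped those of every intact analog. bPTH(3-34) gave 6.95, 6.67 and 6.98, and bPTH(7-34) 7.15, 6.77 and 7.19, both short of the threshold.

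Ccl7 (17254047), which encodes the related MCP-3, followed Ccl2. Vehicle cultures read 6.56, 6.53 and 6.56, and the 9 intact cultures ran from 7.26 to 7.51. Its rises were 0.87 with hPTH(1-34), 0.92 with hPTH(1-31) and 0.87 with PTH(1-36) (SE 0.16; limma adjusted p = 9.15e-04, 5.51e-04 and 1.11e-03). With hPTH(7-34) Ccl7 read 7.26, 7.08 and 7.67, all above vehicle, but the difference of 0.79 missed the threshold (adjusted p = 0.098). It passed with dim genes left out (0.0288) and with a trended, robust prior (0.0147). bPTH(3-34) cultures read 6.71, 6.72 and 6.61, and bPTH(7-34) cultures 7.09, 6.44 and 6.39, where 1 culture stood apart.

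Ccl11 (17254053), or eotaxin, attracts eosinophils through Ccr3. It read 5.64, 6.13 and 5.58 with vehicle and 6.36 to 6.83 in the 9 intact cultures, again without overlap. The rises were 0.87, 0.84 and 0.78 with hPTH(1-34), hPTH(1-31) and PTH(1-36) (SE 0.17; limma adjusted p = 0.0023, 0.0030 and 0.0065). hPTH(7-34) cultures read 5.90, 6.41 and 6.13, which overlapped both vehicle and intact cultures. bPTH(3-34) cultures read 5.81, 5.99 and 5.71, and bPTH(7-34) cultures 5.76, 6.08 and 5.59.

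These 4 genes are neighbours. In the RefSeq order of protein-coding genes, Ccl2, Ccl7, Ccl11, Ccl12, Ccl8 and Ccl1 follow each other on chromosome 11 with no other gene between, and 4 of these 6 rose with each intact analog. Ccl8, another monocyte attractant, differed from vehicle by +0.49, +0.25 and +0.32 with hPTH(1-34), hPTH(1-31) and PTH(1-36), and Ccl1, a Ccr8 ligand, by +0.41, -0.08 and +0.05, none past the threshold. A second run on the same chromosome, Ccl5, Ccl9, Ccl6, Ccl3 and Ccl4, held 5 ligands that attract monocytes and other leukocytes, and 0 of them rose or fell against vehicle with any of the 6 peptides in limma's test.

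**Figure D1:**
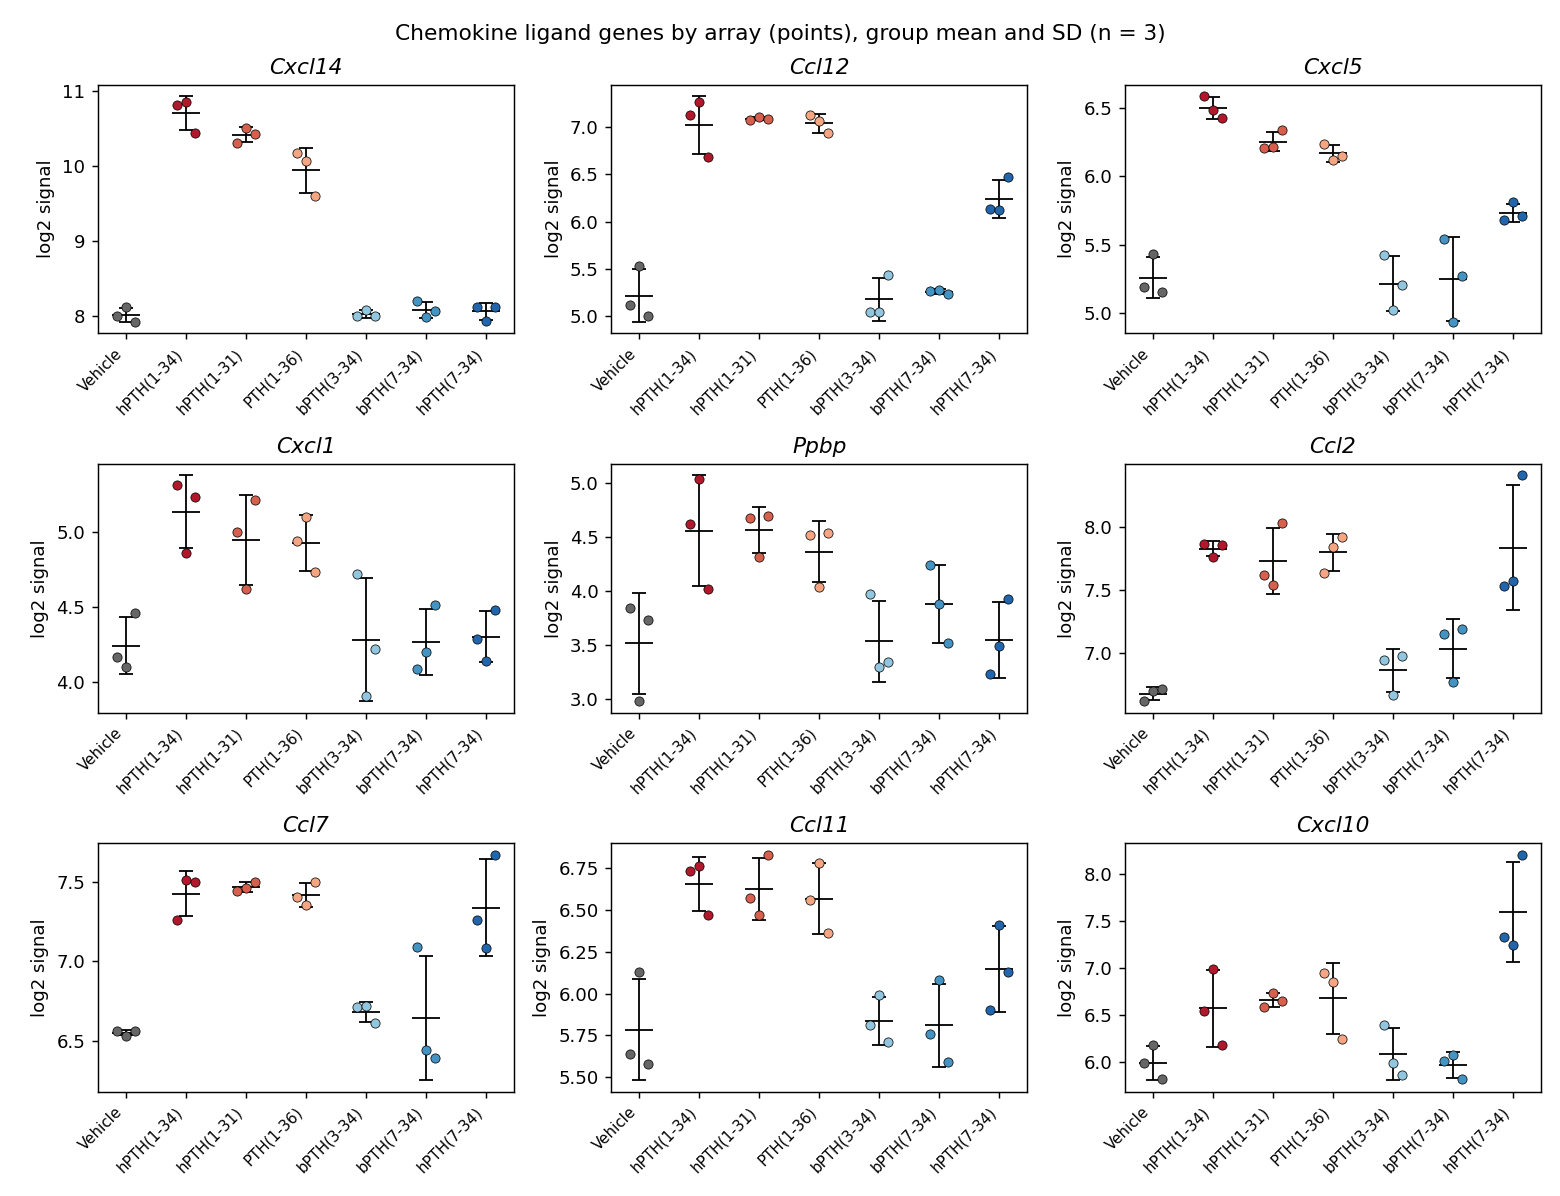
Log2 signal (y axis) of 9 chemokine genes in each of the 21 arrays (points), by treatment group (x axis); long bars are group means and whiskers 1 SD (n = 3). Each y axis has its own range and does not start at 0. Cxcl14 stays near 8 in all groups without an intact analog, whereas Ccl2 and Ccl7 are as high with hPTH(7-34) as with the intact analogs and Cxcl10 is highest with it.

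Among neutrophil attractants, Cxcl5 and Cxcl1 rose with each intact analog, Ppbp with hPTH(1-34) and hPTH(1-31), and Cxcl2 and Cxcl3 with none. Cxcl5 (17438955), a Cxcr2 ligand also called LIX, read 5.19, 5.43 and 5.15 with vehicle, 6.59, 6.49 and 6.43 with hPTH(1-34), 6.21, 6.22 and 6.34 with hPTH(1-31), and 6.24, 6.12 and 6.15 with PTH(1-36). The intact cultures lay above every other culture of the study. The differences of 1.25, 1.00 and 0.91 (SE 0.13) had limma adjusted p-values of 2.15e-06, 2.94e-05 and 1.02e-04. hPTH(7-34) cultures read 5.68, 5.81 and 5.71, above all 3 vehicle cultures, and their difference of 0.48 missed the threshold (adjusted p = 0.31, range 0.148 to 0.600 over the alternatives). Bovine peptides gave 5.02 to 5.42 (bPTH(3-34)) and 4.93 to 5.54 (bPTH(7-34)).

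Cxcl1 (17438987), the mouse Cxcr2 ligand KC, was dimmer, with 4.17, 4.10 and 4.46 in vehicle cultures. It read 5.31, 4.86 and 5.23 with hPTH(1-34), 5.00, 4.62 and 5.21 with hPTH(1-31), and 4.94, 5.10 and 4.73 with PTH(1-36). It rose by 0.89, 0.70 and 0.68 (SE 0.20; limma adjusted p = 0.0058, 0.030 and 0.041). The last 2 rises each missed the threshold when any of 4 single arrays was left out, 2 vehicle arrays (replicates 1 and 2) among them, with adjusted p-values up to 0.147. hPTH(7-34) cultures, at 4.29, 4.14 and 4.48, lay within 0.06 of vehicle on average (95% interval -0.35 to 0.47). Those given bovine peptides ran from 3.91 to 4.72 with bPTH(3-34) and from 4.09 to 4.51 with bPTH(7-34).

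Ppbp (17438963) encodes the precursor of platelet basic protein and of the neutrophil attractant NAP-2. Its signal lay near the array median, with 3.84, 2.98 and 3.73 in vehicle cultures, 4.62, 5.04 and 4.02 with hPTH(1-34), 4.68, 4.32 and 4.70 with hPTH(1-31), and 4.52, 4.04 and 4.54 with PTH(1-36). The groups did not overlap, and the differences were 1.04, 1.05 and 0.85 (SE 0.28). Those with hPTH(1-34) and hPTH(1-31) passed limma's test (adjusted p = 0.0245 and 0.0235), and each lost its call without any 1 of 3 arrays (highest adjusted p 0.142), and that with PTH(1-36) did not (adjusted p = 0.080). The latter passed with a trended, robust prior (0.0474) and with dim genes left out (0.0338). Ppbp met that filter only through its means with hPTH(1-34) and hPTH(1-31), so the second pass is no support for PTH(1-36). Of the platelet markers listed, Gp9 and Itga2b were measured, and they differed from vehicle by -0.10 to +0.06 with the intact analogs, none past the threshold. hPTH(7-34) cultures, at 3.23, 3.49 and 3.93, lay around the vehicle values, as did those given bPTH(3-34) (3.30 to 3.97) and bPTH(7-34) (3.52 to 4.24).

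Cxcl5, Ppbp, Pf4, Cxcl3, Cxcl15, Cxcl1 and Cxcl2 form an unbroken run of 7 genes on chromosome 5, of which 3, 3 and 2 rose against vehicle with hPTH(1-34), hPTH(1-31) and PTH(1-36). Within it Cxcl2 and Cxcl3, which also encode Cxcr2 ligands, read 3.32 and 1.42 on average in vehicle cultures, below the lowest array median. Cxcl2 differed from vehicle by +0.39, +0.70 and +0.37 with the same 3 peptides, with the smallest limma adjusted p at 0.063. Pf4 (platelet factor 4), between Ppbp and Cxcl3, differed from vehicle by -0.18 to +0.18 over the 6 peptides.

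Cxcl14 (17293006), a CXC ligand without a settled receptor that is made by many epithelia and stromal cells, had the largest rise among the 34 genes. It read 8.0, 8.11 and 7.92 with vehicle, 10.82, 10.85 and 10.44 with hPTH(1-34), 10.31, 10.51 and 10.43 with hPTH(1-31), and 10.17, 10.06 and 9.60 with PTH(1-36). No culture treated otherwise exceeded 8.19. The increases were 6.47-, 5.30- and 3.82-fold (log2 differences 2.69, 2.41 and 1.93, SE 0.13; limma adjusted p = 1.35e-10, 5.71e-10 and 1.44e-08). bPTH(3-34) cultures read 7.99, 8.08 and 8.0, bPTH(7-34) cultures 8.19, 7.98 and 8.06, and hPTH(7-34) cultures 8.12, 7.93 and 8.12, within or just above the vehicle range.

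The 3 intact analogs end at different residues, and at the same 100 nM each of the others was set against hPTH(1-34). In both comparisons 0 of 34 members passed limma's test, at backgrounds of 0 (hPTH(1-31)) and 0.00451% (PTH(1-36)) of all genes. In each, 4 members had an unadjusted p under 0.05, a threshold at which the share of all genes was not counted. Cxcl14 was lower with PTH(1-36) than with hPTH(1-34) by 0.76 on the log2 scale (difference -0.76, 95% interval -1.04 to -0.48, SE 0.13), and the 3 cultures of each group did not overlap, as in 9.95% of all genes. That difference missed the threshold (limma adjusted p = 0.083). It passed with dim genes left out (0.0371), with a trended, robust prior (0.00992) and without hPTH(1-34) replicate 3 (0.0451), and its adjusted p ranged up to 0.880 over the alternatives. hPTH(1-31) differed from hPTH(1-34) in Cxcl14 by -0.29 (95% interval -0.57 to -0.01; adjusted p = 0.999). For Ccl12, the intervals against hPTH(1-34) ran from -0.26 to 0.39 with hPTH(1-31) and from -0.31 to 0.34 with PTH(1-36), and for Ccl2 from -0.50 to 0.30 and from -0.43 to 0.37, so smaller differences between intact analogs were not resolved.

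Cxcl10 (17449718), or IP-10, is induced by interferons and attracts T cells through Cxcr3. It showed the reverse order, with the highest signals in cultures given hPTH(7-34). Those read 7.33, 7.25 and 8.21, above all other cultures, against 5.99, 6.18 and 5.82 with vehicle. The rise of 1.60 (SE 0.24), or 3.03-fold, had a limma adjusted p of 0.0076. Intact group means lay between, and single cultures read 6.55, 6.99 and 6.18 with hPTH(1-34), 6.59, 6.74 and 6.65 with hPTH(1-31), and 6.95, 6.85 and 6.25 with PTH(1-36). Their differences from vehicle of 0.58, 0.66 and 0.69 (SE 0.24) missed the threshold (adjusted p = 0.18, 0.11 and 0.10). With dim genes left out, those of hPTH(1-31) and PTH(1-36) passed it (0.0485 and 0.0446), as did that of hPTH(1-31) with only the groups compared (0.0236) and that of PTH(1-36) without its replicate 3 (0.0437). The lowest hPTH(1-34) culture equalled the highest vehicle culture. bPTH(3-34) cultures read 6.40, 5.99 and 5.87, and bPTH(7-34) cultures 6.02, 6.08 and 5.82.

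With hPTH(7-34), 3 of 34 chemokine genes rose against vehicle and 0 fell, in a comparison where 0.0586% of all genes rose (13 of 22180) and 0.0135% fell. Beside Cxcl10 these were Ccl12, by 1.02 (SE 0.15; limma adjusted p = 0.0076), and Ccl2, by 1.16 (SE 0.19; adjusted p = 0.016). At an unadjusted p under 0.05 there were 9 such members, Cxcl9, Ccl7, Ccl11, Cxcl5 and Cxcl16 higher and Cxcl15 lower among them. The share of all genes at that unadjusted threshold was not counted, so the 9 cannot be set against the shares above. The count of 3 was 0 without vehicle replicate 3, 1 without vehicle replicate 1 and 2 without hPTH(7-34) replicate 3, the culture with the highest Cxcl10 and Ccl2. It was also 0 where only these 2 groups of 3 entered the fit. Without hPTH(7-34) replicate 3 the differences were 1.29 for Cxcl10, 0.91 for Ccl12 and 0.87 for Ccl2.

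Cxcl9 and Cxcl11 encode the other Cxcr3 ligands. Cxcl9, which RefSeq places 1 protein-coding gene away from Cxcl10 on chromosome 5, differed from vehicle by 0.55 with hPTH(7-34) (SE 0.18; limma adjusted p = 0.44) and by 0.12 to 0.29 with the intact analogs. Cxcl11, which RefSeq lists as a transcribed pseudogene in C57BL/6J, read 2.79 on average in vehicle cultures and differed by 0.20. Neither passed the test with any peptide.

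Neither bovine truncated peptide moved a chemokine gene past the threshold. With bPTH(3-34) and with bPTH(7-34), 0 of 34 members were called by limma, at a background of 0 of 22180 genes, and 0 of 34 had an unadjusted p under 0.05. Differences from vehicle ran from -0.28 to 0.36 with bPTH(3-34) and from -0.17 to 0.36 with bPTH(7-34). hPTH(7-34) and bPTH(3-34), both at 100 nM, could be set against each other directly, and 2 of 34 members were higher with hPTH(7-34) and 0 lower (0.0496% of all genes were called). Cxcl10 was higher by 1.51 (SE 0.24; limma adjusted p = 0.022) and Ccl12 by 1.06 (SE 0.15; adjusted p = 0.012). Ccl2 was higher by 0.97 (SE 0.19) and missed the threshold (adjusted p = 0.10), but passed with dim genes left out (0.0386) and with a trended, robust prior (0.0394). The count of 2 fell to 0 without bPTH(3-34) replicate 2 or without hPTH(7-34) replicate 3, and to 1 without bPTH(3-34) replicate 1 or 3. bPTH(7-34), given at 1000 nM, was compared with vehicle only.

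**Figure D2:**
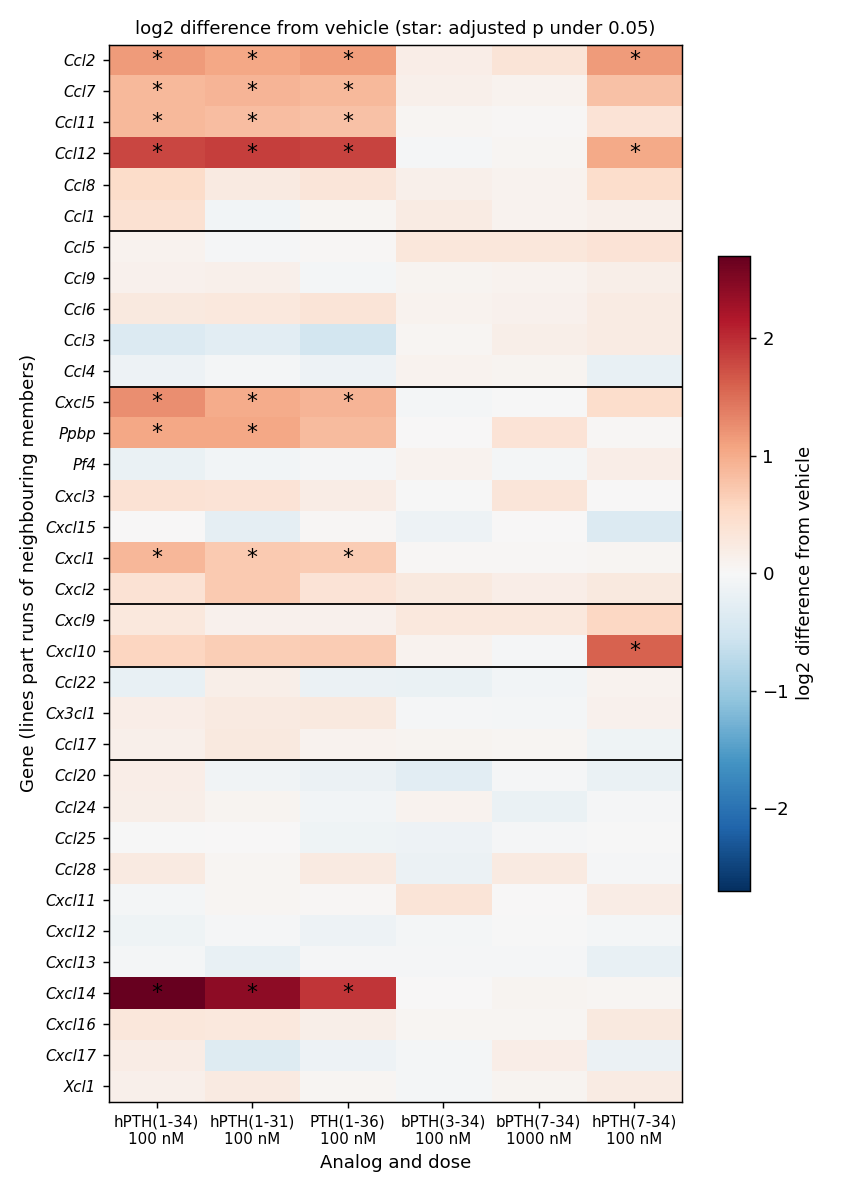
Log2 difference from vehicle (colour; red higher, blue lower) of all 34 chemokine genes (rows) with each of the 6 peptides (columns, with dose), a star marking a limma adjusted p under 0.05. Lines part runs of neighbouring genes on a chromosome; the last block holds single genes. In the 3 intact columns stars stand at Ccl2, Ccl7, Ccl11, Ccl12, Cxcl5, Cxcl1 and Cxcl14, with Ppbp in 2 of them, 0 stand in the 2 bovine columns, and 3 stand under hPTH(7-34), at Ccl2, Ccl12 and Cxcl10.

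The intact analogs were then compared with hPTH(7-34) directly, at a matched 100 nM. For the mean of the 3 intact analogs, 7 of 34 members were higher and 3 lower than with hPTH(7-34), where 5.64% of all genes were higher and 9.22% lower. The median difference over the members was +0.08, and over all genes +0.003. In 6 members the 9 intact cultures did not overlap the 3 of hPTH(7-34), at a background of 13.7% of all genes: Cxcl14, Ccl12, Cxcl5, Cxcl1 and Ppbp above and Cxcl10 below. Of the 34, the 6 without overlap and the 3 called lower were both near their backgrounds. The differences were +2.30 (SE 0.11) for Cxcl14, +0.95 (SE 0.23) for Ppbp, +0.81 (SE 0.13) for Ccl12, +0.70 (SE 0.16) for Cxcl1 and +0.58 (SE 0.11) for Cxcl5. limma's adjusted p-values were 4.01e-11, 0.0080, 1.65e-04, 0.0053 and 8.31e-04 in that order. Without hPTH(7-34) replicate 1 the adjusted p of Ppbp was 0.0758.

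Cxcl10 was 1.94-fold lower with the intact analogs than with hPTH(7-34) (log2 difference -0.96, SE 0.20; limma adjusted p = 0.0023), and kept its call whichever of the 12 arrays was left out. Ccl2 and Ccl7 differed by -0.05 (95% interval -0.37 to 0.27) and +0.10 (-0.17 to 0.37), so these monocyte attractants, raised against vehicle, had no difference that the arrays could resolve here. Ccl11 was higher by 0.47 (SE 0.14; adjusted p = 0.029). Its call was lost without hPTH(7-34) replicate 1 (adjusted p = 0.209) or replicate 3 (0.0907).

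The other 3 members past the threshold had small or unstable differences. Ccl3 (17266967), a leukocyte attractant also called MIP-1 alpha, was lower by 0.60 on the log2 scale (difference -0.60, SE 0.20; limma adjusted p = 0.047). It read 9.67, 9.91 and 9.27 with hPTH(7-34), 9.16, 9.43 and 8.49 with hPTH(1-34), 9.0, 9.23 and 9.13 with hPTH(1-31), and 9.31, 8.73 and 8.68 with PTH(1-36), so the groups overlapped. Leaving out any 1 of 9 of its 12 arrays ended the call (highest adjusted p 0.262). The summed linear level of the 12 macrophage and osteoclast markers moved the same way, from 16195 to 18457 with hPTH(7-34) to between 12957 and 16128 with the intact analogs. That sum adds signals across genes, so bright markers such as Lyz2 (12.2 in vehicle) weigh far more than Acp5 (6.45). The part of these markers in the Ccl3 difference was not tested.

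Pf4 (17438969), which encodes a chemokine of platelet granules, differed by -0.28 (SE 0.09; limma adjusted p = 0.045), with 6.94, 7.30 and 7.07 in hPTH(7-34) cultures against 6.64 to 7.08 in the intact ones. Leaving out any 1 of 8 of its 12 arrays ended the call (highest adjusted p 0.320). Cxcl15 (17438980), or lungkine, was higher by 0.31 (SE 0.09; adjusted p = 0.025), with 1.70, 1.35 and 1.74 in hPTH(7-34) cultures against 1.69 to 2.23. Those signals lie far below the array median, and without hPTH(7-34) replicate 2 the adjusted p was 0.253.

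Single intact analogs gave the same directions against hPTH(7-34). With hPTH(1-34) 6 members were higher and 2 lower (4.20% and 6.66% of all genes), with hPTH(1-31) 5 and 1 (4.24% and 6.19%), and with PTH(1-36) 4 and 1 (3.45% and 5.04%). Cxcl14, Ccl12, Cxcl5 and Cxcl10 passed limma's test with each of the 3. The differences of Cxcl14 were 2.65, 2.36 and 1.89 with hPTH(1-34), hPTH(1-31) and PTH(1-36) (SE 0.13), and those of Cxcl10 -1.02, -0.94 and -0.91 (SE 0.24). The difference of Cxcl5 with PTH(1-36), 0.44 (SE 0.13; adjusted p = 0.043), missed the threshold whichever of the 6 arrays was left out (0.0744 to 0.132).

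**Figure D3:**
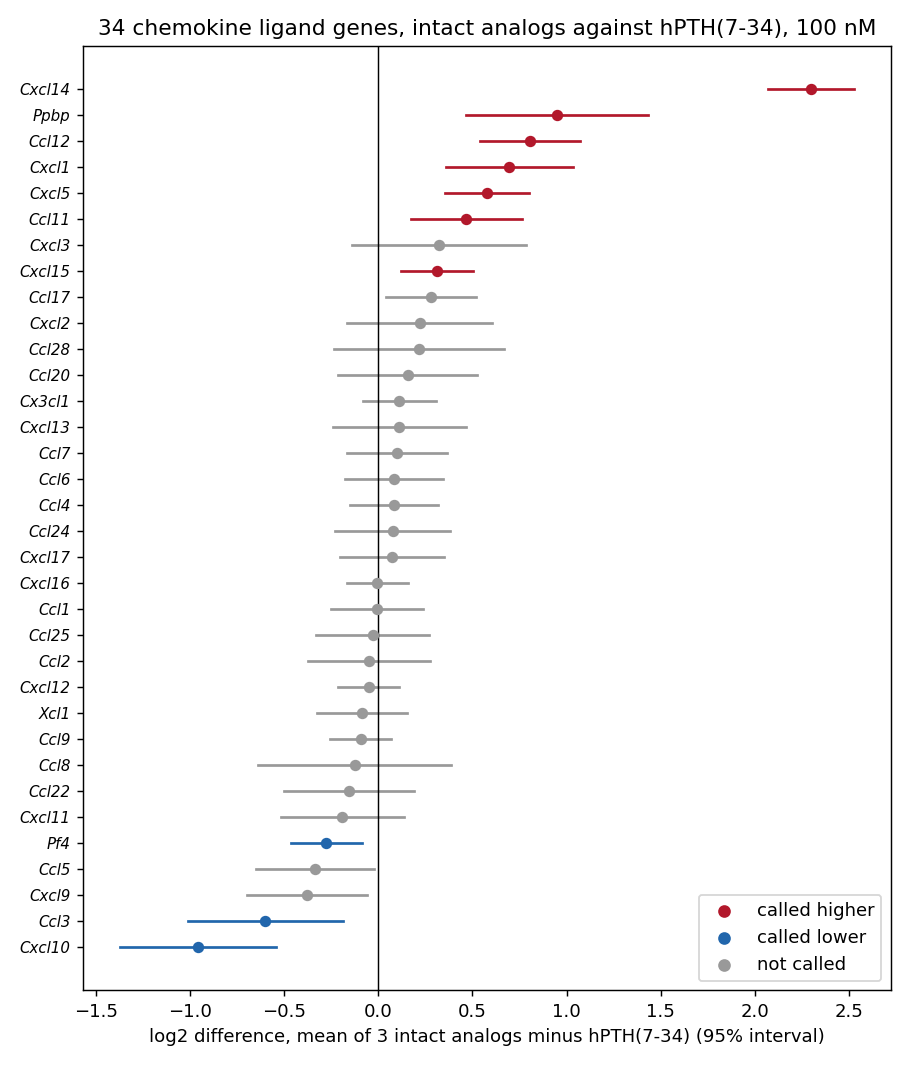
Log2 difference between the mean of the 3 intact analogs and hPTH(7-34), all at 100 nM (x axis), for each of the 34 chemokine genes (y axis, sorted), with 95% intervals as bars. Red points are the 7 members called higher with the intact analogs, blue points the 3 called lower and grey points the 24 not called; Cxcl14 at +2.30 and Cxcl10 at -0.96 are the extremes.

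The remaining 22 chemokine genes passed the test in none of the 13 comparisons. Their vehicle means ran from 1.42 (Cxcl3) to 9.59 (Cxcl12), and in 6 of them no group mean reached the lowest array median of 3.49, so that a change of a weak transcript may not have been detectable. Among those with strong signals was Cxcl12, the Cxcr4 ligand that holds blood stem cells in the marrow, at 9.59 with vehicle and within -0.14 to -0.02 of it with all 6 peptides. Ccl9, a mouse Ccr1 ligand, read 9.48 with vehicle and differed by -0.04 to +0.16. Ccl5 (8.23 with vehicle), an attractant of T cells and monocytes, was +0.30 with each bovine peptide and +0.37 with hPTH(7-34), none past the threshold. Cxcl16 (7.98), the membrane-bound Cxcr6 ligand, came closest to a call, with +0.30 for hPTH(1-34) (limma adjusted p = 0.057). Cx3cl1 (7.20), the membrane-bound ligand of Cx3cr1, lies between Ccl22 and Ccl17, which act on Ccr4, on chromosome 8, and these 3 neighbours differed from vehicle by -0.19 to +0.26. The homeostatic and mucosal ligands Cxcl13, Cxcl17, Ccl20, Ccl24, Ccl25 and Ccl28 differed by -0.34 to +0.24, and Xcl1, the C-type ligand, by -0.05 to +0.24.

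Chemokine receptors and scavengers moved in few cases. Of 22 measured genes, 2 were higher and 2 lower with the intact analogs than with hPTH(7-34) (mean of the 3; 5.64% of all genes higher, 9.22% lower). Ackr3, a scavenger of Cxcl12, read 5.33, 5.58 and 5.20 with vehicle, 6.73, 6.53 and 6.58 with hPTH(1-34), 6.53, 6.76 and 6.46 with hPTH(1-31), 6.64, 6.59 and 6.29 with PTH(1-36), and 5.34, 5.11 and 5.26 with hPTH(7-34). The intact cultures lay above all others, by 1.33 (SE 0.10) against hPTH(7-34), with a limma adjusted p of 1.72e-08. Ackr4, a scavenger of Ccl19, Ccl21 and Ccl25, was dim and went the other way, with 2.88 to 3.26 in intact cultures against 3.40 to 3.91 with hPTH(7-34) (difference -0.55, SE 0.12; adjusted p = 0.0034). Cx3cr1, found on monocytes, was also lower (difference -0.39, SE 0.10; adjusted p = 0.014), and Cxcr1, a neutrophil receptor, higher, by 0.57 (SE 0.16; adjusted p = 0.020), both with overlapping cultures. Ccr2, Cxcr2 and Cxcr3, whose ligands moved, read between 3.22 and 3.81 in vehicle cultures, near the array median, and differed by +0.07, -0.31 and -0.21, none past the threshold. Against vehicle, 1 receptor rose and 2, 1 and 1 fell with hPTH(1-34), hPTH(1-31) and PTH(1-36), and 0 moved with a truncated peptide. Over all genes 3.90%, 4.38% and 3.68% rose and 4.74%, 4.32% and 3.54% fell with these 3 analogs, so 1 of 22 is near the background.

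Cytokines, sensors and inhibitors known to regulate chemokine transcripts were listed as well. That list was also chosen with earlier results known, so the shares of all genes do not test it. Of 21 measured, 9, 8 and 5 rose against vehicle with hPTH(1-34), hPTH(1-31) and PTH(1-36), where 3.90%, 4.38% and 3.68% of all genes rose, and 0 fell. With hPTH(7-34) 2 rose (0.0586% of all genes), and 0 moved with the bovine peptides. Il6, a cytokine of the cyclic AMP response in osteoblasts, read 2.69, 2.41 and 2.86 with vehicle and 4.66 to 5.74 in intact cultures. It was 2.64 higher with the intact analogs than with hPTH(7-34) (SE 0.20; limma adjusted p = 2.40e-08), like Cxcl14 and Cxcl5 in direction. Il17ra, a receptor subunit for IL-17, was 0.85 higher (SE 0.08; adjusted p = 8.42e-07).

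Tnf, a strong inducer of Ccl2, read 6.36, 6.85 and 6.26 with vehicle, 7.56 to 8.09 in intact cultures and 7.27, 7.30 and 7.74 with hPTH(7-34), so both kinds of peptide lay above vehicle. Its rise with hPTH(7-34) was 0.95 (SE 0.16; limma adjusted p = 0.025). Tlr2, a sensor of bacterial lipoproteins, read 6.78, 6.82 and 6.82 with vehicle, 7.01 to 7.39 in intact cultures and 7.52, 7.56 and 7.92 with hPTH(7-34), the order seen for Cxcl10. Its rise with hPTH(7-34) was 0.86 (SE 0.11; adjusted p = 0.0022). Irf1, an interferon-regulated factor, was 0.66 lower on the log2 scale with the intact analogs than with hPTH(7-34) (difference -0.66, SE 0.09; adjusted p = 1.92e-05), with 6.55, 6.55 and 6.78 under hPTH(7-34) and 5.76 to 6.18 in intact cultures. Rel, an NF-kappaB subunit, differed by -0.36 (SE 0.07; adjusted p = 0.0020). The inhibitor Nfkbia rose by 0.72, 0.70 and 0.57 with hPTH(1-34), hPTH(1-31) and PTH(1-36) (SE 0.12; adjusted p = 5.39e-04, 7.38e-04 and 0.0051). With hPTH(7-34) it read 7.61, 7.48 and 7.85 against 7.05, 7.24 and 7.01 with vehicle, a difference of 0.55 that missed the threshold (adjusted p = 0.18).

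**Figure D4:**
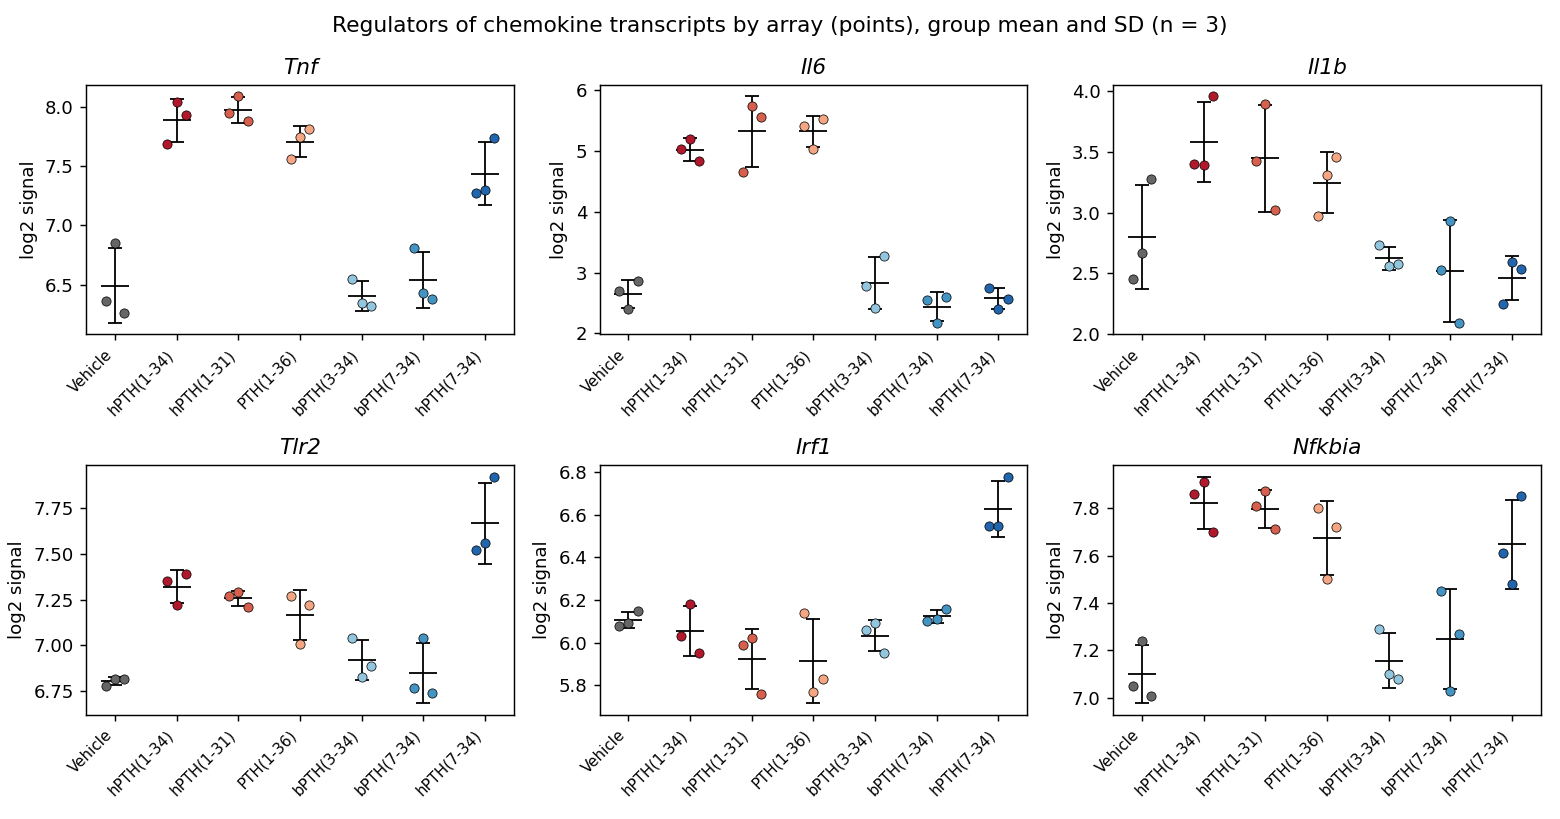
Log2 signal (y axis, own range in each panel, not starting at 0) of 6 regulators of chemokine transcripts in each array (points), by treatment group (x axis), with group mean and SD (n = 3). Tnf is above vehicle with the intact analogs and with hPTH(7-34), Il6 is at 4.66 or more in the 9 intact cultures and at 3.28 or less in the others, and Tlr2 and Irf1 are highest with hPTH(7-34).

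Proteins that bind or trim chemokines were measured by 7 genes, of which 2, 3 and 2 rose against vehicle with hPTH(1-34), hPTH(1-31) and PTH(1-36), beside 3.90%, 4.38% and 3.68% of all genes. The heparan sulfate carriers Sdc4 and Sdc1, which tether chemokines at the cell surface, were higher with the intact analogs than with hPTH(7-34) by 0.57 (SE 0.08; limma adjusted p = 6.81e-05) and 0.60 (SE 0.09; adjusted p = 1.57e-04). Mmp12, a macrophage protease that cleaves chemokines, was lower, with a difference of -0.47 (SE 0.12; adjusted p = 0.0098). It averaged 4.76, 4.51 and 4.42 with hPTH(1-34), hPTH(1-31) and PTH(1-36), around the 4.56 of vehicle, and 5.04 with hPTH(7-34). Of the ligands not among the 34, Ccl26, Ccl27a and Cklf were measured and 0 of 3 passed the test in the same comparison (1 at an unadjusted p under 0.05).

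Markers of other cells were read beside these results. In the comparison of intact analogs with hPTH(7-34), 11 of 12 macrophage and osteoclast markers had differences below 0 (median -0.20), 6 at an unadjusted p under 0.05 and 0 past limma's adjusted threshold. Against vehicle, 12 of 12 were above 0 with hPTH(7-34) (median +0.14, 0 past the threshold, 1 at an unadjusted p under 0.05). Over all genes the medians were +0.003 and 0 in these comparisons. The shares of all genes with such directions or unadjusted p-values were not counted. Markers of the same cells need not move independently, so the counts describe directions only. The summed linear level of the 12 was 15180 to 16913 with vehicle and, as given beside Ccl3, 16195 to 18457 with hPTH(7-34), so these ranges overlapped. The part of these markers in the results for Cxcl10, Tlr2 and Mmp12 was not tested. Fcgr1 alone of the 12 passed the test against vehicle, with hPTH(1-34) (+0.49; adjusted p = 0.030), where 3.90% of all genes rose. Neutrophil markers (5 of 6), lymphocyte markers (5 of 6) and mast cell markers (4 of 4) had vehicle means below the lowest array median, and of these 16 only Nkg7 passed the test between the intact analogs and hPTH(7-34) (+0.47, SE 0.13; adjusted p = 0.017). Of 6 endothelial markers Kdr was higher (+0.62) and Tek lower (-0.91), of 9 osteoblast markers 1 was higher and 3 lower, of 4 chondrocyte markers 1 was higher, and of 2 platelet markers 0 were called, with the intact analogs against hPTH(7-34). In that comparison 5.64% of all genes were higher and 9.22% lower. Among the osteoblast markers, Pth1r averaged 6.11, 6.11 and 6.19 with hPTH(1-34), hPTH(1-31) and PTH(1-36). It averaged 7.21 with vehicle and 7.16 with hPTH(7-34). Sp7 was lower too, at 5.37, 5.30 and 5.23 with the same 3 analogs, 5.94 with vehicle and 6.02 with hPTH(7-34). Alpl went the other way, at 9.49, 9.50 and 9.23 with these analogs, 8.93 with vehicle and 8.87 with hPTH(7-34).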

How the data were processed

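RNA (100 ng) from 21 mouse calvarial osteoblast cultures was hybridised to Affymetrix Mouse Gene 2.0 ST arrays, per the labels. The deposited log2 values were made by the authors with RMA in Affymetrix Expression Console, per the submitters' processing notes; versions, settings and the base of the logarithm are not given in the sources used here, and log2 was inferred from the method and the range (0.25 to 13.6). Of 41345 transcript clusters, 23521 had 1 gene symbol in the platform annotation, 1814 several and 16010 none. The cluster with the highest mean stood for each of 22180 genes (1082 had several), and the symbols did not differ from RefSeq's in 23328 comparisons. No column was left unused, and array number limits the precision.

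limma 3.58.1 under R 4.3.3 fitted group means (functions lmFit, eBayes) over 7 groups of 3 arrays, and 13 contrasts were drawn, two-sided, with Benjamini-Hochberg adjustment over all genes and a threshold of 0.05. The fit was also run on simulated data with 200 changed genes. No outcome of that run is given here, so it says nothing of how many calls are false. Counts at an unadjusted p under 0.05 stand without the share of all genes, which was not counted. Every chemokine gene called in a contrast was named, and of each other list up to 4 genes with the smallest adjusted p in a contrast, Ccr2, Cxcr2 and Cxcr3 being added after their values were seen. The 34 members and the lists were chosen with earlier results of these data known. Alternatives were array medians subtracted, quantile normalization, dim genes left out, a trended and robust prior, the mean of a gene's clusters, all clusters tested, only the groups compared, the replicate number as a block, and each array left out. Promoter letters were searched in RefSeq windows (GRCm38.p6), whose coordinates belong to that build; the build behind the array annotation is not given in the sources used here.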

Additional observations from a re-analysis of the deposited data

Results flagged for a closer look

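No gene can be named for a cluster annotated with several, so such clusters entered none of the comparisons. Among them were 33 that list a chemokine ligand, with 23 distinct patterns of values, which shows that some repeat the same probes. In a fit of all clusters, 5 of these 33, with 2 distinct patterns, were higher with hPTH(1-34) than with vehicle at a limma adjusted p under 0.05, where 1.97% of all 41345 clusters were. All 5 list Ccl19 with the same further symbols, and 13 clusters list Ccl19. The 2 patterns share values on several arrays, such as 5.81 and 5.6 in hPTH(1-34) replicates 2 and 3, so they are not independent. With hPTH(1-31) 1 of the 33 was called (adjusted p = 0.04), also higher (2.14% of all clusters), and with PTH(1-36) 0 were (lowest adjusted p 0.197, 7 at an unadjusted p under 0.05). Both patterns differed by 0.463 on the log2 scale (adjusted p = 0.00799 and 0.0254). In the first, vehicle cultures averaged 5.28 and hPTH(1-34) cultures 5.74, beside 5.62 with hPTH(1-31), 5.48 with PTH(1-36), 5.57 with hPTH(7-34) and 5.32 with each bovine peptide.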

How the results depend on the processing

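Over the 57 calls of 12 chemokine genes, 855 repeats with an alternative setting gave 720 that kept the call, 135 that missed the threshold and 0 that changed direction. One setting, the mean of a gene's clusters, leaves every member's values unchanged because each has 1 cluster. It kept 57 of 57 calls and says little of their stability. Leaving out dim genes kept 54 of 54 calls, but that setting tests fewer genes and retains a gene through its highest group mean. Its kept calls, which are part of the 720, therefore also say little of stability. The count for the mean intact analog against hPTH(7-34), 10, was 6 with all clusters tested. For hPTH(1-34) against hPTH(7-34), 8, it was 4 with only the groups compared and 5 with all clusters, and for PTH(1-36), 5, it was 2 in both. For hPTH(7-34) against vehicle, 3, it was 0 with only the groups compared, and against bPTH(3-34), 2, it was 0 with only the groups compared and 1 with all clusters. Some counts grew: with dim genes left out or the trended prior, the former was 4 (Ccl7 added) and the latter 3 (Ccl2 added). For PTH(1-36) against hPTH(1-34), 0, it was 1 with dim genes left out and 1 with the trended prior. Fewer samples enter the first kind of fit and more tests the second. With 1 array left out, the counts ran from 7 to 10 for the mean intact analog against hPTH(7-34), and from 5 to 7, 3 to 6 and 3 to 5 for hPTH(1-34), hPTH(1-31) and PTH(1-36) against it. Against vehicle they ran from 7 to 8, 6 to 8 and 6 to 8 for the same 3, 0 to 0 for both bovine peptides and 0 to 3 for hPTH(7-34). They ran from 0 to 2 for hPTH(7-34) against bPTH(3-34), 0 to 0 for hPTH(1-31) and 0 to 1 for PTH(1-36) against hPTH(1-34). Arrays with the same replicate number were alike only weakly, with r of deviations from group means over 0.1 in 1 of 63 same-numbered pairs. The median r was 0.0341 in these pairs and -0.0129 in differently numbered ones. Yet 14 of 21 arrays were closest on average to their own number, so a weak pairing cannot be set aside. As a replicate block the number kept 56 of 57 calls and lost Pf4 in the first comparison (difference -0.276, limma adjusted p = 0.0539). It added, among others, Ccl2 for hPTH(7-34) against bPTH(3-34) (adjusted p = 0.0410). Among all genes called between PTH(1-36) and hPTH(7-34), 40.7% were higher on the deposited scale and 50.9% after quantile normalization. Low signals limit what can be said of Ppbp and Cxcl2, near the array median, and of Cxcl3 and Cxcl15, far below it.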
